A study of Mus musculus with 12 samples.

Results

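The replication-dependent histone genes lie in the HIST clusters and carry symbols that start with Hist1h, Hist2h, Hist3h or Hist4h. The count table held 68 such symbols among 23621, and the 54 with at least 10 reads summed over the 12 libraries are described here. They comprised 5 linker (H1) genes, 13 H2A, 14 H2B, 10 H3 and 12 H4 genes. By their RefSeq entries, 46 lie on chromosome 13, 6 on chromosome 3, 1 on chromosome 11 and 1 on chromosome 6. Of the other symbols, 9 were listed at 0 reads and 5 had 1 to 9. Just outside the minimum stood Hist3h2ba with 9 reads, and just inside it Hist2h2ab with 16 and Hist1h4b with 17.

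H2A, H2B, H3 and H4 form the nucleosome core around which DNA is wound, and H1 binds the linker DNA between nucleosomes. The clustered genes are transcribed mainly during S phase, when new chromatin is assembled. Their mRNAs typically end in a conserved stem-loop, bound by the protein Slbp, in place of a poly(A) tail. Some of these genes can also give longer, polyadenylated mRNAs in cells that have stopped dividing. Neutrophils stop dividing at the myelocyte stage in the marrow and enter the blood as non-dividing cells with condensed chromatin.

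The mice were female Balb/c, 8 weeks old, and their neutrophils gave 3 groups of 4 RNA-seq libraries. Naive neutrophils came from bone marrow of mice without tumours. High-density (HDN) and low-density (LDN) neutrophils came from blood of mice bearing liver metastases, and by the title the study concerned the role of LDN in liver metastasis of breast cancer. Naive therefore differs from the other groups in both tissue and tumour, and these cannot be told apart. The column headers of HDN and LDN also carry a tag that those of Naive lack. Its meaning is not stated, and it separates the same groups. Whether each library came from its own mouse is not stated in the labels. The p-values thus cover only the variation from library to library, which may be technical.

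Libraries held 18113922 to 30044508 reads, and 3 reads in a library were worth 0.0954 to 0.153 CPM (the usual depth-scaled count unit, with library sizes corrected for RNA composition by TMM). Of 7 neutrophil-defining genes measured, S100a9 was the most abundant in each group. Their summed level was 135053 to 168715 CPM in Naive, 75841 to 124301 in HDN and 159835 to 206205 in LDN, so HDN lay below both other groups. Lists of other cell types also moved with the groups. Markers of early granulocyte precursors summed to 96.6 to 133 CPM in Naive, 11.2 to 19.0 in HDN and 35.8 to 131 in LDN. B cell markers summed to 20.2 to 54.7, 0.458 to 2.93 and 1.82 to 7.81 CPM, and erythroid markers, with 2 of 8 at 0, to at most 7.52 CPM in any library. T cell markers summed to 193 to 267, 3.51 to 19.98 and 32.3 to 48.3 CPM, of which Cd3d made up 98.1% in Naive. Monocyte and macrophage markers summed to 619 to 828, 356 to 559 and 352 to 526 CPM, and platelet markers to 111 to 121, 9.46 to 11.3 and 27.6 to 32.6 CPM. Csf1r made up 45.8%, 84.5% and 26.4% of the monocyte and macrophage sum, and Itgb3 96.0%, 33.6% and 88.1% of the platelet sum. The median log2 difference of the 7 monocyte and macrophage genes was 2.09 in LDN against HDN. It was 0.57 in HDN and 0.54 in LDN against Naive, so their sum does not describe each gene. The part of these cell types in the histone values was not tested.

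The libraries were made from polyadenylated RNA, so an mRNA that ends at its stem-loop should be captured poorly, and the levels below cannot be read as total histone mRNA. The stem-loop was searched as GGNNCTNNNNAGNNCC with all 6 pairs of the stem intact, on the transcript strand of the longest coding transcript of each gene in GENCODE M21 (GRCm38). It was found in 45 of 67 HIST genes (67.2%) and in 124 of 21810 other protein-coding genes (0.569%). A site past the end of an annotated transcript would not be found. The sites of the most abundant members, and of members with large differences between groups, are shown because each annotated transcript runs on past the site by a different length. Capitals mark the 16 bases of stem and loop, all within 3′ UTRs.
Hist1h1c: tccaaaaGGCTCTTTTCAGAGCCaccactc
Hist1h2be: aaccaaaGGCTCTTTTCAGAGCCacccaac
Hist1h4i: acttaaaGGCCCTTTTTAGGGCCaccacaa
Hist1h1e: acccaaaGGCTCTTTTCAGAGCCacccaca
Hist3h2a: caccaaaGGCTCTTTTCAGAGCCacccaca
Hist1h2bb: acccaaaGGCTCTTTTAAGAGCCacccaca
Hist1h4h: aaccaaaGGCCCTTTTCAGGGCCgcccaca
The Hist1h1c site lies at chr13:23739505-23739534 (+), the Hist1h2be site at chr13:23585524-23585553 (-), the Hist1h4i site at chr13:22040959-22040988 (-) and the Hist1h1e site at chr13:23621775-23621804 (-). Hist3h2a has its site at chr11:58955165-58955194 (+), Hist1h2bb at chr13:23747196-23747225 (+) and Hist1h4h at chr13:23531451-23531480 (+). The annotated transcript continued for 840 bases past the stem-loop in Hist1h1c, 1861 in Hist1h2be, 330 in Hist1h4i, 1153 in Hist1h1e and 1643 in Hist3h2a. It continued for only 23 bases in Hist1h2bb and 46 in Hist1h4h. In Hist1h2bc and Hist2h2be these letters were not found in the annotated transcript.

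The 54 members together took 59217 of 284383584 reads, 0.0208% of the total. Hist1h1c alone held 56.0% of the member reads, and the 5 most abundant members (Hist1h1c, Hist1h2bc, Hist1h2be, Hist1h4i and Hist1h1e) held 89.6%. Per kb of GENCODE transcript, the mean level over all libraries was 71.6 CPM in Hist1h1c, 31.7 in Hist1h2bc, 16.9 in Hist1h4i and 5.74 in Hist1h2be. Members whose annotated transcript runs at least 100 bases past the stem-loop (19) held 75.8% of member reads, those with a shorter end (17) held 2.77%, and those where no stem-loop was found (18) held 21.4%. The limit of 100 bases was chosen after the values were seen. The shares come from a few genes, since the median level per kb was 0.330, 0.337 and 0.457 CPM in these sets, and members of each set lay among the 10 highest (5, 3 and 2). Some of the 18 without a stem-loop have short GENCODE transcripts. Hist1h2bl has 381 bases and Hist1h3h 411, against RefSeq spans of 473 and 488. A site past the annotated end would be missed in such genes, and their levels per kb rest on these lengths.

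**Figure D1:**
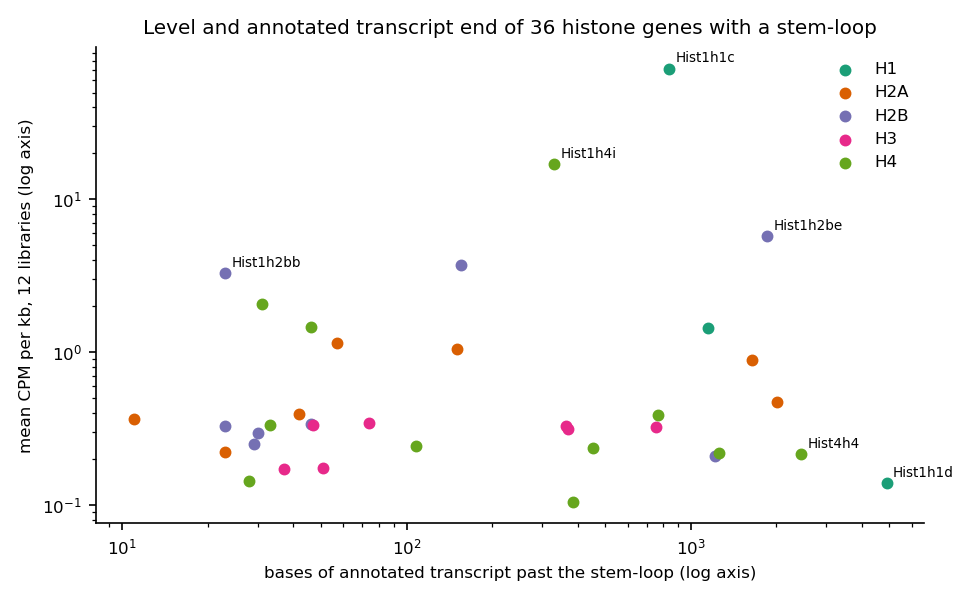
Mean level per kb over the 12 libraries (y axis, log scale) against the bases of annotated transcript past the stem-loop (x axis, log scale) for the 36 members with a stem-loop, 1 point a gene, coloured by histone class. Hist1h1c, Hist1h4i and Hist1h2be stand highest, and the other members lie at similar levels at short and long distances.

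Of the 54 members, 28 passed the filter on low counts and were tested, and 26 had too few reads. The filter asks for its level in 4 libraries, and 14 of the 28 reached it in fewer than 4 of the 8 blood libraries, so they passed only with the help of Naive. These were Hist1h1b, Hist1h1d, Hist1h2ak, Hist1h2bh, Hist1h2bl, Hist1h2bn, Hist1h3d, Hist1h3e, Hist1h3f, Hist1h3i, Hist1h4d, Hist2h2ac, Hist2h4 and Hist4h4. A lower level than in Naive was partly set by the filter in these 14, and their tests against Naive describe them and support no count. The untested 26 summed to 769 reads in Naive, 132 in HDN and 147 in LDN. Each had 10 to 47 reads over the 4 Naive libraries, 0 to 27 over HDN and 1 to 20 over LDN, and 7 were at 0 in HDN. Naive alone thus met the minimum of 10 reads in each of the 26, and their excess in Naive was partly set by that rule. Near-identical copies also limit single genes: the median member had 50.6% of its 50-base windows unique among transcripts, and 8 of the 9 symbols at 0 reads had under 50%.

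Summed over the 54 members, Naive held 357, 290, 214 and 210 CPM, HDN 232, 325, 253 and 197, and LDN 59.9, 82.0, 43.6 and 127. All LDN libraries lay below all others, while Naive and HDN overlapped. The mean was 268 ± 69.6 in Naive, 252 ± 54.1 in HDN and 78.2 ± 36.3 in LDN (SD, n = 4). Without the 5 most abundant members the sums were 39.1 ± 5.32, 14.5 ± 1.04 and 10.99 ± 4.27 CPM in Naive, HDN and LDN, and here HDN and LDN overlapped while both lay below Naive. Genes could enter this sum through their Naive reads alone, so its excess in Naive was partly set by the read minimum. Fewer cells with these mRNAs and less mRNA per cell cannot be told apart in such bulk samples.

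**Figure D2:**
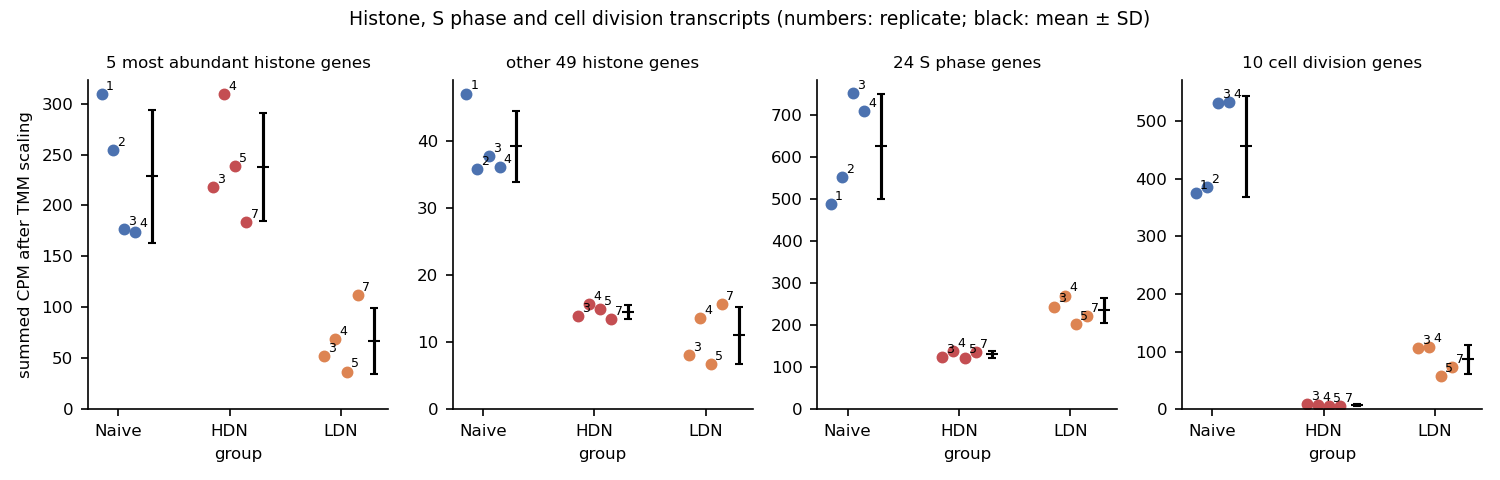
Summed CPM (y axes) in each library for the 5 most abundant histone genes, the other 49, the S phase genes and the cell division genes, with the replicate number beside each point and the group mean ± SD in black. The abundant histone genes stood at 238 in HDN, 229 in Naive and 67.2 in LDN, while the cell division genes were lowest in HDN.

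In HDN against Naive, 3 of the 28 tested members were higher and 18 lower (75.0% called), where 59.8% of all 10604 genes were called, 30.0% higher and 29.9% lower. All HDN libraries lay above all Naive libraries in 2 members and below them in 18, where such a separation in either direction held for 53.3% of all genes. The median log2 difference of the 28 was -1.71, against 0.04 over all genes, and setting genes with a group at 0 reads to their bound left it at -1.71. The counts called, the separation counts and the median all include the 14 members that passed only with the help of Naive. All were partly set by the filter. The genes that rose were Hist1h2bc, Hist3h2a and Hist1h4i, and those that fell included members of each class. All H3 members tested had passed only with the help of Naive. Of the 14 members that passed the filter without the help of Naive, 3 were higher and 6 lower (64.3% called), a share near that of all genes.

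In LDN against Naive, 0 members were higher and 24 lower (85.7% called), where 54.2% of all genes were called, 27.4% higher and 26.8% lower, by edgeR's quasi-likelihood test. DESeq2 and limma-voom also called 0 higher, and 0 of the 28 were higher at an unadjusted p under 0.05. Libraries did not overlap in 23 members, all lower, where this held for 55.3% of all genes. The median was -2.06, against 0.01. All these counts and the median include the 14 members that passed only with the help of Naive, and were partly set by the filter. Among the 14 members that passed without the help of Naive, 11 were lower (78.6% called). These include Hist1h2bb, Hist1h4h, Hist1h4n, Hist1h2ac and Hist2h2bb, which reached the filter level in 4 HDN but only 0 to 2 LDN libraries. A low level in LDN was thus partly set in these members too, and the share only describes them.

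In LDN against HDN, 2 members were higher and 10 lower (42.9% called), where 46.3% of all genes were called, 26.0% higher and 20.3% lower. The share called was thus near that of all genes, and the median was -0.31 against 0.02. Libraries did not overlap in 9 members, all lower, where this held for 39.2% of all genes in either direction. Of the 14 members that passed without the help of Naive, 8 were called by edgeR (57.1%), all lower. Genes can pass in this way through HDN alone, as Hist1h2bb and Hist1h4h did with 4 HDN and 0 LDN libraries at the filter level. A lower level in LDN was thus partly set by this choice, and the share only describes these members. The same holds for fits on HDN and LDN alone. With the 4 same-numbered pairs of HDN and LDN as a block, fitted on these groups alone, 14 members were tested, of which 1 was higher and 8 were lower, where 57.2% of 9983 genes were called. The 10 lower members were Hist1h1c, Hist1h2bb, Hist1h2bc, Hist1h2be, Hist2h2bb, Hist1h3d, Hist1h4h, Hist1h4i, Hist2h4 and Hist3h2a, and the 2 higher were Hist1h1b and Hist1h2ak, both of which passed the filter only with the help of Naive. The 3 comparisons share libraries and are not independent.

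**Figure D3:**
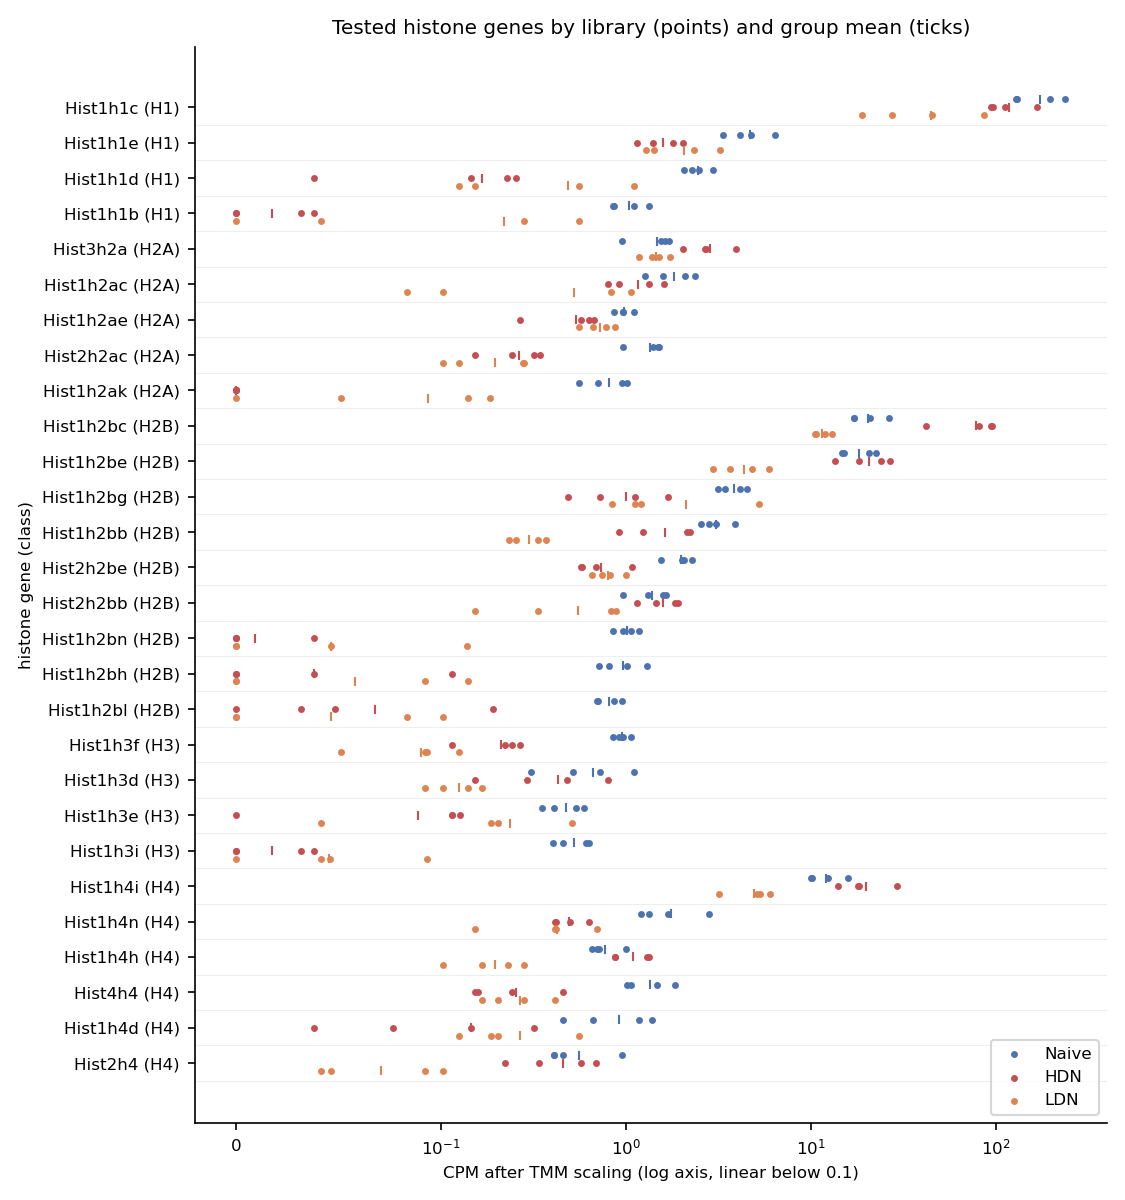
CPM (x axis, log scale above 0.1) of each of the 28 tested members, grouped by class, with 1 point a library and a tick at each group mean. Hist1h2bc is the abundant gene in which HDN lies apart above Naive, and most members of low level lie near 0 in both HDN and LDN.

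The H1 genes encode linker histones. Hist1h1c (RefSeq symbol H1f2) stood at 238, 196, 130 and 129 CPM in Naive, 93.8, 167, 96.8 and 113 in HDN and 27.5, 45.0, 18.9 and 86.2 in LDN. All LDN libraries lay below all HDN and Naive libraries, and Naive and HDN overlapped. It fell 2.65-fold in LDN against HDN (log2 -1.40, SE 0.39, edgeR adjusted p = 0.00967) and 3.90-fold against Naive (edgeR adjusted p = 0.000858). Without LDN 7, its highest LDN library, the log2 differences were -2.01 and -2.56. In HDN against Naive the log2 difference was -0.56 (SE 0.38, edgeR adjusted p = 0.221).

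The other H1 genes had a different order. Hist1h1e stood at 4.66 ± 1.31 CPM in Naive, 1.59 ± 0.397 in HDN and 2.06 ± 0.906 in LDN. Both blood groups were lower than Naive (log2 -1.56 and -1.18, edgeR adjusted p = 0.000768 and 0.006). HDN and LDN overlapped (log2 0.38, edgeR adjusted p = 0.352). Its annotated transcript overlaps that of Hist1h2be on the same strand, so their reads may be shared. Hist1h1d stood at 2.07 to 2.94 CPM in Naive and fell 14.0-fold in HDN (log2 -3.80, SE 0.58, edgeR adjusted p = 6.5e-05) and 4.99-fold in LDN (edgeR adjusted p = 0.00176). In LDN it had 3, 24, 3 and 12 reads, and without LDN 4 its log2 difference from Naive was -3.16. LDN exceeded HDN by log2 1.48 (edgeR adjusted p = 0.0732), which passed the threshold with DESeq2 (adjusted p = 0.0458) and without LDN 3 (0.0307) or LDN 5 (0.0417). Hist1h1b, whose transcript is unique in sequence, had 35, 23, 17 and 22 reads in Naive, 0, 1, 0 and 1 in HDN and 1, 12, 0 and 6 in LDN. The summed reads gave an LDN to HDN ratio of 11.5 (95% counting interval 2.76 to 101.5), and HDN and LDN libraries overlapped. The call (edgeR adjusted p = 0.0235) was lost with limma-voom (adjusted p = 0.08) and without HDN 3 (0.0507), HDN 5 (0.0544), LDN 4 (0.121) or LDN 7 (0.0547). Against Naive it was lower in HDN by a ratio of 54.7 (interval 14.7 to 458) and in LDN 4.67-fold, or log2 -3.26 without LDN 4. Hist1h1d and Hist1h1b passed the filter only with the help of Naive, so their lower levels than in Naive were partly set by it.

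H2A genes were few in reads. Hist3h2a, from the small cluster on chromosome 11, stood at 0.956, 1.55, 1.63 and 1.72 CPM in Naive, 2.71, 3.94, 2.66 and 2.02 in HDN and 1.503, 1.38, 1.17 and 1.72 in LDN. All HDN libraries lay above all others. It was 1.95-fold higher in HDN than in Naive (log2 0.96, SE 0.26, edgeR adjusted p = 0.00543) and fell 1.96-fold in LDN against HDN (edgeR adjusted p = 0.00781). Its annotated transcript overlaps Trim17 on the same strand, and reads of these genes may not be separate. LDN and Naive differed by log2 -0.01 (SE 0.27, edgeR adjusted p = 0.985).

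Hist1h2ac, which shares its upstream region with Hist1h2bc, had 1.83 ± 0.496 CPM in Naive, 1.162 ± 0.371 in HDN and 0.522 ± 0.505 in LDN. It fell 3.49-fold in LDN against Naive (edgeR adjusted p = 0.0147), and its LDN libraries were split between 2, 18, 2 and 23 reads. Without LDN 7 the difference from Naive was -2.47, and that from HDN passed the threshold (log2 -1.82, edgeR adjusted p = 0.0289, from -1.14 with all libraries), as it did with limma-voom (-1.77, adjusted p = 0.0325). Hist2h2ac fell 4.98-fold in HDN (edgeR adjusted p = 4.27e-05) and 6.72-fold in LDN (edgeR adjusted p = 2.47e-05). Hist1h2ae fell 1.82-fold in HDN (edgeR adjusted p = 0.02), and its LDN level of 0.721 ± 0.139 CPM differed from Naive at 0.973 ± 0.103 by log2 -0.43 (edgeR adjusted p = 0.225), or -0.71 with library sizes that leave out the 20 most abundant genes (edgeR adjusted p = 0.0356). Hist1h2ak had 74 reads in Naive, 0 in HDN and 8 in LDN. Against a floor of 3 reads over the HDN group, it was at least 27.8-fold lower in HDN than in Naive and at least 3.22-fold higher in LDN than in HDN, with 1 LDN library also at 0. Both Hist2h2ac and Hist1h2ak passed the filter only with the help of Naive, so their lower levels than in Naive were partly set by it.

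Among the H2B genes, Hist1h2bc separated the 3 groups. Hist1h2bc (RefSeq symbol H2bc4) stood at 26.5, 21.0, 17.0 and 17.1 CPM in Naive, 80.9, 93.9, 94.9 and 41.8 in HDN and 12.9, 10.7, 10.6 and 11.96 in LDN. No libraries of different groups overlapped. It rose 3.81-fold in HDN against Naive (log2 1.93, SE 0.23, edgeR adjusted p = 8.43e-06) and fell 6.75-fold in LDN against HDN (log2 -2.75, SE 0.24, edgeR adjusted p = 2.27e-06) and 1.77-fold in LDN against Naive (edgeR adjusted p = 0.00861). The authors' deposited tables gave 1.90, -2.76 and -0.86 for the same differences on the log2 scale.

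Hist1h2be had 22.6, 20.6, 15.1 and 14.7 CPM in Naive, 23.9, 18.2, 26.7 and 13.5 in HDN and 4.80, 3.64, 2.96 and 5.91 in LDN. HDN and Naive overlapped (log2 0.17, SE 0.25, edgeR adjusted p = 0.569), and all LDN libraries lay below both. It fell 4.74-fold in LDN against HDN (edgeR adjusted p = 2.09e-05) and 4.21-fold against Naive (edgeR adjusted p = 1.88e-05). Hist1h2bb, with a short annotated end, fell stepwise from 3.08 ± 0.585 CPM in Naive to 1.63 ± 0.651 in HDN and 0.298 ± 0.0643 in LDN, and its groups did not overlap. It was 1.91-fold lower in HDN than in Naive (edgeR adjusted p = 0.0114) and 5.33-fold lower in LDN than in HDN (edgeR adjusted p = 0.000101). Hist2h2bb fell 2.85-fold in LDN against HDN (edgeR adjusted p = 0.00843). No 50-base window of its transcript is unique (0%), and it overlaps other annotated genes on both strands, so its reads are uncertain.

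Hist2h2be, whose transcript is unique in sequence, fell 2.66-fold in HDN (edgeR adjusted p = 0.000383) and 2.45-fold in LDN (edgeR adjusted p = 0.00103) against Naive at 1.98 ± 0.310 CPM. Hist1h2bg fell 3.77-fold in HDN against Naive (edgeR adjusted p = 0.00687). In LDN it stood at 0.835, 1.20, 1.12 and 5.26 CPM, so LDN 7 alone lay in or above the Naive range of 3.15 to 4.54. Its LDN to HDN difference was log2 1.05 (edgeR adjusted p = 0.125), or 0.81 with the replicate block, where it passed the threshold (edgeR adjusted p = 0.0471). Without LDN 7 it was lower in LDN than in Naive (log2 -1.91, edgeR adjusted p = 0.000953, from -0.86), as it was with limma-voom (-1.27, adjusted p = 0.0279). Hist1h2bn had 93 reads in Naive, 1 in HDN and 4 in LDN, a Naive to HDN ratio of 105 (95% counting interval 18.4 to 4186), with 13.6% of its windows unique. This gene passed the filter only with the help of Naive, so its ratio was partly set by the filter.

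**Figure D4:**
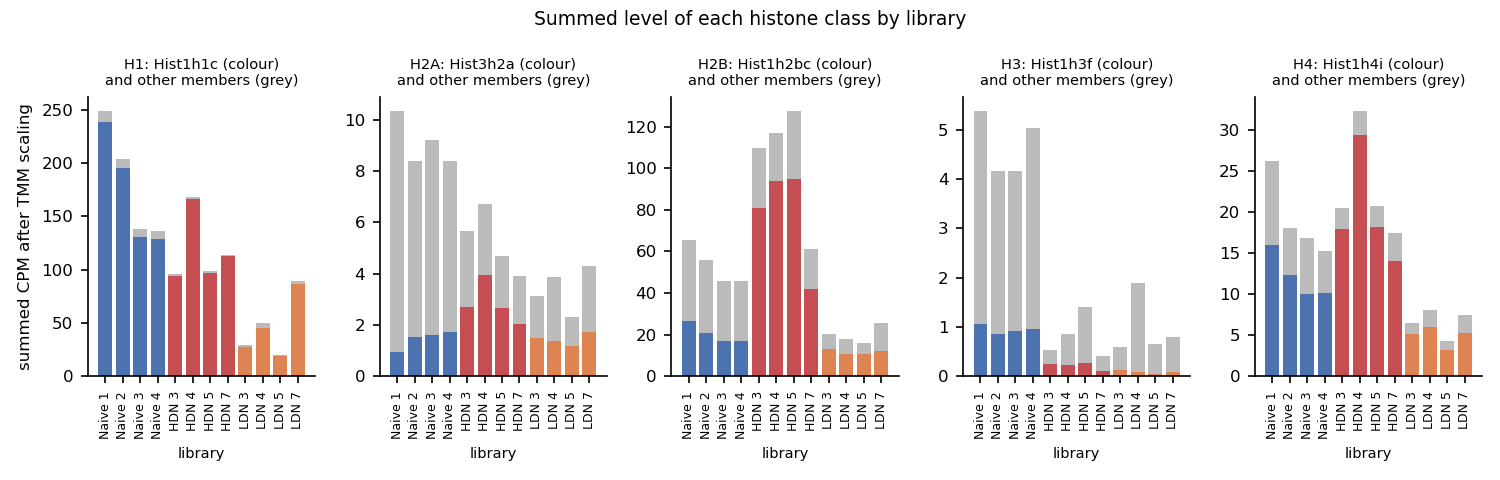
Summed CPM of each histone class (y axes from 0) in each of the 12 libraries, with the most abundant member coloured by group and the other members in grey. Hist1h2bc makes up most of the H2B sum in HDN, and the H3 class has no leading gene.

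H3 genes lacked an abundant member. Their summed level was 4.69 ± 0.622 CPM in Naive, 0.805 ± 0.443 in HDN and 0.983 ± 0.612 in LDN, with overlap of HDN and LDN. The 4 tested H3 genes passed the filter only with the help of Naive, and the 6 untested ones met the read minimum in Naive alone. The excess in Naive, of the sum and of single H3 genes, was thus partly set by these rules. Hist1h3f fell 4.42-fold in HDN (log2 -2.14, SE 0.30, edgeR adjusted p = 2.97e-05) and 9.81-fold in LDN (edgeR adjusted p = 3.81e-06) against Naive at 0.849 to 1.07 CPM. Its LDN to HDN difference was log2 -1.15 (edgeR adjusted p = 0.0702), which passed the threshold without HDN 7 (0.0388) and with library sizes that leave out the 20 most abundant genes (0.0405). Hist1h3d was 3.34-fold lower in LDN than in HDN (log2 -1.74, SE 0.58, edgeR adjusted p = 0.026), with overlapping libraries, and the call was lost with limma-voom (adjusted p = 0.0598) and without HDN 5 (0.0937), LDN 4 (0.055) or LDN 5 (0.0524). Hist1h3e fell 4.85-fold in HDN against Naive (edgeR adjusted p = 0.005), with 26.6% of its windows unique. Its LDN difference from Naive, log2 -1.02 (edgeR adjusted p = 0.127), passed the threshold without LDN 4 (-1.78, edgeR adjusted p = 0.0186). Hist1h3c, not tested, had 15, 12, 7 and 13 reads in Naive, 0 in each HDN library and 2, 6, 2 and 3 in LDN. It was at least 17.7-fold lower in HDN than in Naive against a floor of 3 reads over the group, and its HDN and LDN libraries did not overlap. Hist1h3i had 49, 2 and 4 reads in Naive, HDN and LDN, a Naive to HDN ratio of 27.6 (95% counting interval 7.25 to 235).

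Among H4 genes Hist1h4i was the most abundant, at 15.98, 12.3, 10.02 and 10.1 CPM in Naive, 17.9, 29.4, 18.2 and 14.1 in HDN and 5.14, 5.997, 3.17 and 5.31 in LDN. All LDN libraries lay below the others, and HDN and Naive overlapped. It fell 4.05-fold in LDN against HDN (log2 -2.02, SE 0.26, edgeR adjusted p = 4.43e-05) and 2.47-fold against Naive (edgeR adjusted p = 0.000775). It was 1.64-fold higher in HDN than in Naive (edgeR adjusted p = 0.0238). That call was lost without HDN 4 (log2 0.47, adjusted p = 0.0834), Naive 2 (0.0572), Naive 3 (0.0718) or Naive 4 (0.0702), and with library sizes that leave out the 20 most abundant genes (0.0571).

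Hist1h4h had a similar order at a low level, with 0.994, 0.701, 0.712 and 0.656 CPM in Naive, 0.872, 1.34, 0.876 and 1.30 in HDN and 0.167, 0.231, 0.102 and 0.279 in LDN. It fell 5.505-fold in LDN against HDN (edgeR adjusted p = 6.32e-05) and 3.85-fold against Naive (edgeR adjusted p = 0.000316), and HDN and Naive overlapped (log2 0.51, edgeR adjusted p = 0.126). Hist2h4, with 99.0% of its windows unique, had 53 reads in Naive, 47 in HDN and 6 in LDN. It fell 6.14-fold in LDN against HDN (log2 -2.62, SE 0.56, edgeR adjusted p = 0.00206). Hist4h4, on chromosome 6, fell 5.33-fold in HDN (edgeR adjusted p = 0.000105) and 5.03-fold in LDN (edgeR adjusted p = 0.000216) against Naive at 1.35 ± 0.386 CPM. Hist1h4n fell 3.63-fold and 4.13-fold (edgeR adjusted p = 0.000753 and 0.000568), with 14.4% of its windows unique. Only with the help of Naive did Hist4h4 pass the filter, so its lower levels than in Naive were partly set by it.

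The class sums are given without a test. H1 summed to 182 ± 54.8, 119 ± 33.6 and 47.2 ± 30.7 CPM in Naive, HDN and LDN, and H2B to 53.3 ± 9.39, 104 ± 29.5 and 20.01 ± 4.03. H4 summed to 19.1 ± 4.92, 22.7 ± 6.59 and 6.60 ± 1.68 CPM, and H2A to 9.09 ± 0.929, 5.25 ± 1.21 and 3.40 ± 0.874. In H1, H2B and H4 all LDN libraries lay below all HDN and Naive libraries. Without Hist1h1c, H1 in LDN (2.82 ± 1.66) was not below HDN (1.805 ± 0.448). The H2B sums of HDN and Naive overlapped, with HDN 7 at 60.9 CPM and Naive 1 at 65.5. Without Hist1h2bc, H2B stood at 32.9 ± 4.98, 26.0 ± 6.005 and 8.48 ± 3.45. The mean of HDN thus no longer exceeded that of Naive, and LDN was still below both. Without Hist1h4i, H4 stood at 6.97 ± 2.32, 2.83 ± 0.388 and 1.70 ± 0.533. Genes could enter the class sums through their Naive reads alone, so an excess in Naive could be partly set by the read minimum.

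H2A and H2B genes often lie head to head and share the DNA between their starts. In 9 such pairs of members both genes lay within 248 bases of each other, and in 4 pairs both were tested. Hist1h2ac and Hist1h2bc, 239 bases apart, differed in HDN against Naive, where Hist1h2bc rose (log2 1.93) and Hist1h2ac stood at -0.66 (edgeR adjusted p = 0.285). Over the groups they had 171 and 1935 reads in Naive, 120 and 8211 in HDN, and 45 and 1005 in LDN. In the pairs Hist1h2ae with Hist1h2bg, Hist2h2ac with Hist2h2be, and Hist1h2ak with Hist1h2bn, both genes were lower in HDN than in Naive. Of these, Hist2h2ac, Hist1h2ak and Hist1h2bn passed the filter only with the help of Naive. The difference within pairs was not tested.

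The region before the start of Hist1h2ac spans the gap to Hist1h2bc, and that before Hist1h4i shows an H4 region for comparison. Each is 250 bases before the RefSeq start (GRCm38.p6), Hist1h2ac at chr13:23683960-23684209 (-) and Hist1h4i at chr13:22041363-22041612 (-), printed on the gene's strand. Capitals mark 3 motifs on either strand. They are TATAAA, then the CCAAT box, and ATGCAAA, which is the core of the octamer element of H2B promoters.
Hist1h2ac: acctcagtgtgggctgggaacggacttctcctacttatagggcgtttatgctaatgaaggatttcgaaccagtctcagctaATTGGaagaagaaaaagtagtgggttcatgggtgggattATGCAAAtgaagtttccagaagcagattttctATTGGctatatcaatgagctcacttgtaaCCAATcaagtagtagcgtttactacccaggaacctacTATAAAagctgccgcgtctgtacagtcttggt
Hist1h4i: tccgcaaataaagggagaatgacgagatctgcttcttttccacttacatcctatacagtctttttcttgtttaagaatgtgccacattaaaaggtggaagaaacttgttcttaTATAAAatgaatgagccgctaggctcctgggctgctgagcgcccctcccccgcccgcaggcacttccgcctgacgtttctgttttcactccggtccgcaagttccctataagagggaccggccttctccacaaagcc
RefSeq windows of 250 bases before to 50 after the start were given for 49 of the 54 members. Over the HIST windows given, CCAAT was present in all 6 H1, 17 H2A, 16 H2B and 10 H3 windows and in 3 of 12 H4 windows, and in 37.3% of 32788 windows of other genes. ATGCAAA was in 7 of 17 H2A and 6 of 16 H2B windows, 0 H1 and H3 windows and 1 of 12 H4 windows, against 4.59% of the others. TATAAA was in 66.7% of H1, 64.7% of H2A, 50% of H2B, 40% of H3 and 66.7% of H4 windows, against 13.5%. The motifs were counted separately and may overlap at their ends. Windows of head-to-head H2A and H2B genes can hold the same DNA, as in Hist1h2ae and Hist1h2bg. A motif there counts in both classes, so the H2A and H2B counts are not independent.

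The genes of DNA replication and division were set beside the histone genes, from lists chosen with earlier results of these data known. Of 24 S phase genes, 22 (91.7%) were lower and 0 higher in HDN against Naive (median log2 -3.95), 21 (87.5%) lower and 0 higher in LDN against Naive (-2.29), and 16 (66.7%) higher and 0 lower in LDN against HDN (1.89). All 10 cell division genes were lower in both blood groups than in Naive and higher in LDN than in HDN. Their summed level was 457 ± 88.3 CPM in Naive, 6.35 ± 1.64 in HDN and 86.5 ± 25.2 in LDN, with no overlap. Rrm2, a subunit of ribonucleotide reductase, stood at 69.6, 1.36 and 11.2 CPM and was higher in LDN than in HDN by log2 3.03 (SE 0.28, edgeR adjusted p = 3.57e-06), and Ccna2, cyclin A, by 4.62 (SE 0.32, edgeR adjusted p = 4.16e-07). Between libraries, Naive 1 had the highest histone sum (357 CPM) and the lowest S phase sum (488 CPM) of its group. Within LDN the histone sum was highest in LDN 7 (127 CPM) and the S phase sum in LDN 4 (270 CPM).

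Replacement histones are made outside S phase from polyadenylated mRNAs. Of 10 tested, 4 were higher and 0 lower in LDN against HDN, 1 higher and 7 lower in HDN against Naive, and 1 higher and 6 lower in LDN against Naive. These are 40%, 80% and 70% called, against 46.3%, 59.8% and 54.2% of all genes. H3f3b, which encodes histone H3.3, was the most abundant, at 1386 ± 289 CPM in Naive, 519 ± 137 in HDN and 506 ± 118 in LDN. The blood groups differed from Naive by log2 -1.42 and -1.45 (edgeR adjusted p = 7.46e-05 and 8.02e-05). H3f3a, which encodes the same protein, was at 384, 384 and 483 CPM and passed the threshold in none of the 3 comparisons with all libraries. It was higher in LDN than in HDN without HDN 5 (log2 0.46, edgeR adjusted p = 0.0306), and in LDN than in Naive without HDN 7 (0.34, edgeR adjusted p = 0.0166) or with the 2 groups fitted alone (0.31, edgeR adjusted p = 0.0216). H1f0, the linker histone of differentiated cells, stood at 17.8, 20.1, 20.4 and 22.4 CPM in Naive, 2.37, 5.94, 1.87 and 4.16 in HDN and 13.2, 32.9, 9.40 and 21.0 in LDN. All HDN libraries lay below all others, the reverse of Hist1h2bc, and LDN exceeded HDN by log2 2.40 (SE 0.40, edgeR adjusted p = 0.000304). H2afy, encoding macroH2A, was higher in HDN (log2 0.42) and LDN (0.82) than in Naive (edgeR adjusted p = 0.0103 and 0.000105). Cenpa, the centromeric H3, fell by log2 -3.04 in HDN and was 1.39 higher in LDN than in HDN (edgeR adjusted p = 0.000125).

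Of 16 tested genes for histone mRNA processing and transcription, 3 were higher and 3 lower in LDN against HDN, 3 higher and 5 lower in HDN against Naive, and 4 higher and 5 lower in LDN against Naive. The shares called were 37.5%, 50% and 56.2%, near or below the 46.3%, 59.8% and 54.2% of all genes. Slbp, which binds the stem-loop, stood at 48.3 ± 7.36, 29.8 ± 2.75 and 28.0 ± 1.11 CPM and was lower in both blood groups than in Naive (log2 -0.70 and -0.79, edgeR adjusted p = 0.000317 and 0.000151). Ncbp1, of the nuclear cap-binding complex, was higher in LDN than in HDN by log2 1.23 (edgeR adjusted p = 4.79e-06) and Srrt, its partner in 3′ end processing, by 0.92 (edgeR adjusted p = 6.85e-06). Npat, the coactivator of histone gene transcription, was lower in LDN than in HDN (log2 -2.19, edgeR adjusted p = 0.0126). HDN 7 held 5.84 CPM of Npat against 0.495 to 1.21 in the other HDN libraries, and the call was lost with limma-voom (adjusted p = 0.0746). Without HDN 7 the log2 difference was -0.92 (edgeR adjusted p = 0.0335). Sympk, a scaffold of the cleavage complex, stood at log2 0.19 in LDN against HDN (edgeR adjusted p = 0.226), or 0.32 without HDN 4 (edgeR adjusted p = 0.0266). Upf1, which acts in decay of histone mRNA, stood at log2 -0.37 (edgeR adjusted p = 0.0565), and 10 alternatives put it past the threshold at -0.38 to -0.53, among them those without Naive 1, HDN 7, LDN 4 or LDN 7.

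Of 18 histone chaperones, 4 were higher and 5 lower in LDN against HDN, 3 higher and 10 lower in HDN against Naive, and 0 higher and 12 lower in LDN against Naive. The shares called were 50%, 72.2% and 66.7%, against the same shares of all genes, so that in LDN against HDN was near the background. Asf1b, the replication-linked H3-H4 chaperone, was at 49.2 ± 9.75 CPM in Naive, 0.314 ± 0.109 in HDN and 5.24 ± 2.52 in LDN. It was higher in LDN than in HDN by log2 4.04 (SE 0.40, edgeR adjusted p = 5.13e-06). Ubn1, which acts with Hira outside replication, was the most abundant, and was higher in HDN than in Naive (log2 0.45, edgeR adjusted p = 0.00132) and lower in LDN than in HDN (-0.34, edgeR adjusted p = 0.0116). Rbbp4 and Dek were lower in LDN than in Naive (log2 -0.55 and -1.69, edgeR adjusted p = 0.00426 and 0.000761), and Nap1l4 was higher in LDN than in HDN (0.55, edgeR adjusted p = 0.00184).

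RNAs that lack a poly(A) tail were listed to show how much such RNA each library held. Of 18 named, 11 had a row and 9 had reads, and their sum was 19.8, 3.32, 5.85 and 2.88 CPM in Naive, 0.872 to 3.85 in HDN and 0.738 to 1.63 in LDN. Naive 1, the library with the most of this RNA, also had the highest histone sum. Over the members other than the 5 most abundant, Naive 1 stood at 47.0 CPM and the other Naive libraries at 35.8 to 37.7, above all HDN (13.4 to 15.7) and LDN (6.74 to 15.6) libraries. As said above, the excess of this sum in Naive was partly set by the read minimum. The part of RNA without poly(A) tails in the histone values was not tested.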

How the data were processed

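Total RNA was extracted and poly(A)-selected stranded libraries were made, per the labels' protocols, and CASAVA 1.8.2, Trimmomatic, STAR and DESeq2 1.16.1 were used, per the submitters' processing notes. The genome build, annotation, strand setting, read length and treatment of multi-mapped reads were not given in the sources used here. The authors deposited raw counts per gene symbol, and 3 tables of their own comparisons. The columns hold, per the file headers, normalized signal averaged over libraries, a log2 fold change with its error, a test statistic (a score) and p-values. 0 columns were left unmatched.

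The members, lists and alternatives were chosen with earlier results of these data known. All 12 libraries were fitted with edgeR 4.0.16 (R 4.3.3, TMM scaling, filter on low counts by group, robust quasi-likelihood test, group as the only term), and p-values were adjusted by Benjamini-Hochberg over 10604 genes at a threshold of 0.05. DESeq2 1.42.0 and limma 3.58.1 (voom) were alternatives. Standard errors are the log2 difference divided by the square root of F. Levels per kb use GENCODE M21 transcript lengths, which may differ from the authors' gene models.

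HDN and LDN share replicate numbers 3, 4, 5 and 7. Deviations from the group means correlated at 0.31 to 0.76 between same-numbered libraries and at -0.61 to 0.41 between others, so the numbers were taken to pair them, and the block was an alternative. No library was a repeat of another, with a chi-square per gene of 3.37 to 193 between replicates. The value of 3.37 was between Naive 3 and Naive 4, and every other pair stood at 15.7 or more. Reads are not independent molecules, so counting intervals (95%) and floors (3 reads summed over a group) cover counting error only.

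Named members were the up to 4 most abundant of each class and the up to 5 largest differences each way per comparison among called members whose mean log2 CPM was 0 or more. Of each list, the up to 3 most abundant genes and the largest difference each way in LDN against HDN were eligible. Hist1h2ak, Hist1h2bn, Hist1h3i, Hist2h4, Slbp and Cenpa were named after their values were seen. HIST symbols were matched to RefSeq for all 54 members.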

Additional observations from a re-analysis of the deposited data

Results flagged for a closer look

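Within the groups of 4, 66 sets of values of 22 named members were searched for a library far from the other 3, and chance alone would mark about 1 in 20 such sets. Hist1h2bg stood at 5.26 CPM in LDN 7, against 0.835 to 1.20 in the other LDN libraries. Hist1h3e was at 0 in HDN 3, against 0.114 to 0.127 CPM in the other HDN libraries, which is 3 or 4 reads a library. Hist1h4h stood at 0.994 CPM in Naive 1, against 0.656 to 0.712 in the other Naive libraries. These 3 sets were the only ones marked.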

How the results depend on the processing

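Without a filter on low counts all 54 members entered the test. Those called numbered 19 in LDN against HDN (8 higher), 39 in HDN against Naive (36 lower) and 40 in LDN against Naive (40 lower). In the same order, 32.6%, 45.4% and 38.7% of 15762 genes were called. The 26 members so added met the minimum of 10 reads in Naive alone, so the counts lower than Naive were partly set by that rule. Members higher in LDN than in HDN, 2 of 28 tested with all settings as reported, numbered 1 of 28 with limma-voom. In this comparison limma-voom called 45.4% of all genes. Fitting the 2 groups alone tested 14 members, of which 0 were higher by edgeR without and 1 with the replicate block, and 40.7% and 57.2% of all genes were called. When each library was left out in turn, 28 to 34 members were tested and 2 to 5 were higher. In these fits 40.8% to 48.2% of all genes were called in either direction. The higher members numbered 5 without HDN 7, LDN 3 or LDN 5 and 4 without Naive 2, HDN 3 or HDN 4, and the cause was not tested. Without its most abundant gene, the class ratio on the log2 scale in LDN against HDN became 0.65 in H1 (from -1.34), -1.62 in H2B (from -2.38) and -0.73 in H4 (from -1.78). In HDN against Naive it became -2.22 in H1 (from -0.61), -1.66 in H2A (from -0.79), -0.34 in H2B (from 0.96) and -1.30 in H4 (from 0.25). In LDN against Naive it became -1.97 in H2A (from -1.42) and -1.96 in H2B (from -1.41). These shifts follow from the gene left out. Members lower in LDN than in HDN numbered 9 to 11 when each library was left out, and the replicate block changed the call of 1 further named member, Hist1h2bg. The planned sum over genes that encode identical proteins was not run, because protein sequences were not used here. Low depth limits the members below the filter, where 1 read decides whether a gene is listed at 0.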
